A study of Mus musculus with 5 samples.

Results

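The genes described here are molecular chaperones of the cytosol and mitochondria in activated CD8 T cells. Members were chosen by gene symbol: those starting with Hspa, Hspb, Hspd, Hspe, Hsph, Hsp90 or Dnaj, or with Cct and a digit, together with Tcp1, Stip1 and Ahsa1, leaving out Hspa5 and Hsp90b1 of the endoplasmic reticulum. The choice by symbol uses no measured value, but the members were chosen with earlier results of these data known. The array named 55 such genes of 8251 in all, and 49 of them, of 5610 genes, passed the filter on low signal and were tested. Each gene was read from 1 probe set, that with the highest mean over the 5 arrays. The samples were CD8 T cells from lymph nodes of C57BL/6 mice of 6 to 8 weeks that carry the OT-1 T cell receptor transgene, so all cells recognise 1 ovalbumin peptide. CD44-low cells were cultured with beads bearing that peptide in its MHC molecule and B7-1, the ligand of CD28, with human IL-2 in every culture. The groups were murine IL-21 for 72 h (1 array), murine IL-21 for 48 h (2 arrays) and no IL-21 at 48 h (2 arrays). Cells cultured for 72 h without IL-21 were not analysed here. The labels call the arrays of a group biological replicates, without saying whether separate mice or separate cultures are meant, and the p-values cover only the spread seen between these arrays.

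Chaperones bind unfolded protein and let it fold without clumping. Hsp70 proteins bind short hydrophobic stretches in a cycle driven by ATP, J-domain proteins deliver clients and start ATP hydrolysis, and Hsp110 proteins exchange the nucleotide. Hsp90 finishes the folding of kinases and steroid receptors, and Stip1, also called Hop, passes clients to it from Hsp70. The ring-shaped chaperonins close around single proteins: TRiC, built of Tcp1 and the Cct subunits, does so in the cytosol for actin and tubulin, and Hspd1 with its lid Hspe1 does so in mitochondria. Activated T cells grow and divide quickly, and their protein synthesis rises with growth.

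Many chaperone genes are known to be switched on by the heat shock factor HSF1 through heat shock elements, inverted repeats of the triplet GAA. RefSeq promoter windows, from 250 bases before to 50 bases after a transcript start (GRCm38.p6), were matched to 47 of the 55 genes by gene identifier and searched on both strands for the triplets GAA, TTC and GAA in that order, any 2 bases apart (on the other strand TTC, GAA and TTC). A match lay in the windows of 4 of the 47 genes (8.51%), against 179 of all 27025 genes with a window (0.662%). Those 4 were Hspd1, Hspe1, Hsph1 and Dnajb6. The first 3 were called lower at 72 h and Dnajb6 was not, where 6 of the 41 tested chaperone genes with a window were called lower. Hspd1 and Hspe1 count the same stretch of bases, and a link between matches and signals was not tested. The windows are shown here. Capitals mark the matched bases. Hspe1 and Hspd1 are neighbours on opposite strands and share the same run of 18 capitals, 2 overlapping matches that begin 84 and 89 bases before the Hspe1 start. A single match begins 15 bases after the Hsph1 start used here and 46 bases before the Dnajb6 start used here. Counted from another RefSeq start of each gene, it begins 36 bases after for Hsph1 and 127 bases before for Dnajb6.
Hspe1 (chr1:55087898-55088197, plus strand): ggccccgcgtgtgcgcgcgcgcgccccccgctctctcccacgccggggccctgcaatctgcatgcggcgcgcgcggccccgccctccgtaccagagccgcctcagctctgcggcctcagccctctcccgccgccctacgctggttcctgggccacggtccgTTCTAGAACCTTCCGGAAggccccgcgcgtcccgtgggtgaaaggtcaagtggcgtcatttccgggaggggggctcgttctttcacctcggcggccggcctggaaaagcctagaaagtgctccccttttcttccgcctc
Hsph1 (chr5:149636266-149636565, minus strand): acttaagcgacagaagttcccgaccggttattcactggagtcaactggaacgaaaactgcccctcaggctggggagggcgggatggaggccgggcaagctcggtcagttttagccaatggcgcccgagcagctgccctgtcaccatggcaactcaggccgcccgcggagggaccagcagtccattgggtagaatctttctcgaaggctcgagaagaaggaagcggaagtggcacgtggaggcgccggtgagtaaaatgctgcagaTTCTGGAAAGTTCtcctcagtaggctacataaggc
Dnajb6 (chr5:29735648-29735947, plus strand): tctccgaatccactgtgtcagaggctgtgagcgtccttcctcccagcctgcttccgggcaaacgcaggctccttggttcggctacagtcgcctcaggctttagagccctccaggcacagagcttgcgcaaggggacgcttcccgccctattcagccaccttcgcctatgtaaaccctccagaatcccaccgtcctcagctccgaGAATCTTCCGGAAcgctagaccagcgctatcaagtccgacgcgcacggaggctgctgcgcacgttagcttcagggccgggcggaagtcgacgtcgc
No match lay in the windows of Hspa4, Hspa14 or Cct3, which were also lower at 72 h, and the other 2 genes called lower, Hspa9 and Dnajc11, were not searched. The windows of Hspa1a, Hspa1b and Dnajb1, described below as stress-inducible, held no match either, so this strict pattern does not mark every such gene. The E-box CACGTG, to which MYC and MAX bind, was present in the windows of 5 of the 47 genes (10.6%), against 8.09% of all genes, and the letters CCAAT, in either strand, in 24 of 47 (51.1%), against 41.1%. A match is a run of letters, and binding was not measured.

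Overall signal differed between arrays before scaling, with trimmed means of 65.9 in 72 h IL-21 cells, 105 and 106 in 48 h IL-21 cells, and 75.4 and 65.3 in 48 h cells without it. Values below are therefore quantile-normalised signals, in the deposited units with an offset of 1.53 included, and each direction is relative to most probe sets on the array. The 7 CD8 T cell markers measured all passed the filter and summed to 7969 in 72 h IL-21 cells, 5225 to 5534 in 48 h IL-21 cells and 5006 to 5114 in 48 h cells without it. Of these 7 genes, Cd3d, Cd3g and Thy1 were called higher at 72 h. The other 4 were not called, with log2 differences of 0.54 for Cd3e, 0.12 for Cd8b1, -0.18 for Cd2 and -0.51 for Cd8a. Cd8a had 506 in 72 h IL-21 cells, against 690 and 753 in 48 h IL-21 cells and 414 and 401 in 48 h cells without it. Sums for markers of other cells were 116, 97.4 to 122 and 106 to 111 in the same order for 6 B cell genes, and 149.9, 126 to 138 and 119 to 143 for 8 myeloid genes. The 2 CD4 T cell genes measured, Cd4 and Zbtb7b, summed to 42.3, 19.9 to 22.9 and 23.7 to 24.6. Likewise 1 NK cell gene read 10.2, 1.97 to 5.14 and 4.72 to 4.90, and 2 erythroid and platelet genes summed to 13.7, 15.5 to 36.7 and 23.2 to 32.6. Of these 19 genes 10 passed the filter, 0 of them called, and none was listed at 0. Their part in the chaperone values was not tested.

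With IL-21 present, 8 chaperone genes were lower at 72 h than at 48 h and none was higher in the limma test over all probe sets. They were the mitochondrial chaperones Hspa9, Hspd1 and Hspe1, the mitochondrial J-domain protein Dnajc11, the Hsp110 genes Hsph1 and Hspa4, the ribosome-linked Hsp70 gene Hspa14, and the TRiC subunit Cct3. Their falls ran from 1.85-fold for Hspe1 to 4.10-fold for Hsph1, with adjusted p between 0.00928 and 0.0437. These 8 of 49 genes are 16.3%, where 7.12% of all 7453 probe sets were called lower and 4.04% higher. The 49 are the brightest probe set of each gene, while the 7453 take in every probe set tested, so the shares are not strictly alike. The median log2 difference over the 49 genes was -0.30, against -0.01 over all probe sets, and 32 of the 49 were negative. The calls depend on the variance estimate, since only 2 residual degrees of freedom exist and the 72 h array has no replicate: without the trend of variance on signal 0 of the 49 were called, with adjusted p between 0.0525 and 0.137 for the 8 genes in limma, and leaving out either 48 h array with IL-21 also left 0. All 8 differences stayed negative in each of those fits and under the 3 other scalings. Of these scalings, centring on the hybridisation controls left 5 of the 49 called and the unscaled values gave 25. Of all 7453 probe sets, 326 were called lower and 320 higher on the controls. In the unscaled values 2027 were called lower and far fewer higher, so the 25 are to be read against that wider shift.

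**Figure D1:**
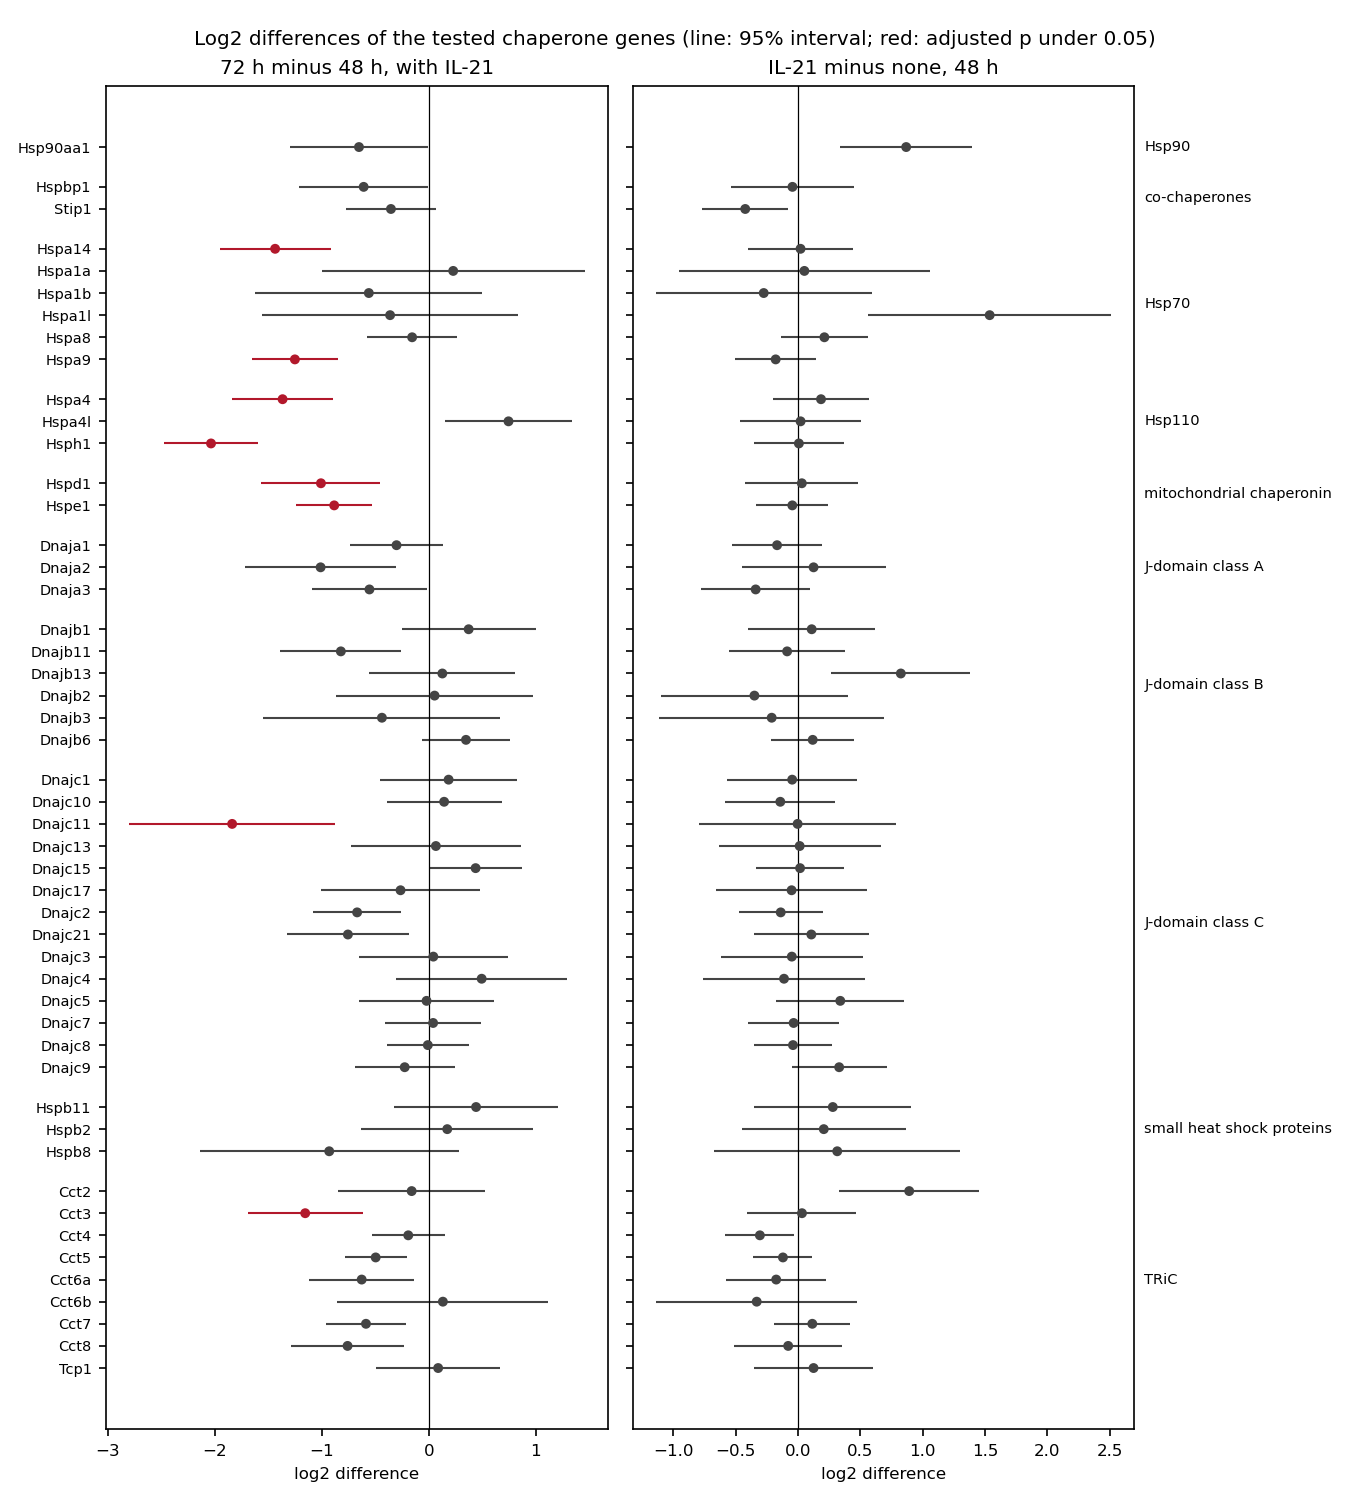
Log2 difference of each of the 49 tested chaperone genes, by family, for 72 h minus 48 h with IL-21 (left) and IL-21 minus none at 48 h (right). Points are limma estimates, lines their 95% intervals, and red marks an adjusted p under 0.05. The 8 red genes all lie left of 0 in the left panel, and the right panel has none.

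The central chaperones of the mitochondrial matrix were all called lower. Hspa9, the mitochondrial Hsp70 (mortalin) that pulls imported proteins into the matrix, had a normalised signal of 296 in 72 h IL-21 cells, against 752 and 659 in 48 h IL-21 cells and 758 and 839 in 48 h cells without it. Hspd1, the chaperonin Hsp60 that folds matrix proteins, had 924 in 72 h IL-21 cells, against 2135 and 1618 in 48 h IL-21 cells and 2087 and 1588 in 48 h cells without it. Hspe1, the lid Hsp10 of that chaperonin, had 531 in 72 h IL-21 cells, against 1037 and 927 in 48 h IL-21 cells and 1048 and 978 in 48 h cells without it. For each of these 3 genes the 72 h array lay below all 4 arrays at 48 h, as it did for 33.8% of all probe sets. The log2 differences of 72 h against 48 h with IL-21 were -1.25 for Hspa9 (SE 0.16, limma adjusted p = 0.0135), -1.01 for Hspd1 (SE 0.23, limma adjusted p = 0.0437) and -0.88 for Hspe1 (SE 0.14, limma adjusted p = 0.0208). The intervals of Hspd1 (-1.56 to -0.45) and Hspe1 (-1.24 to -0.53), 2 genes whose products act together and whose starts lie side by side, covered each other's estimate. In bulk RNA, fewer cells that express a gene and less of its RNA per cell cannot be told apart.

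Of the 3 J-domain proteins described here as mitochondrial 1 was called lower. Dnajc11, which sits at the mitochondrial membranes with the cristae-organising complex, had 8.27 in 72 h IL-21 cells, against 25.0 and 34.9 in 48 h IL-21 cells and 27.9 and 31.4 in 48 h cells without it, a log2 difference of -1.84 (SE 0.39, limma adjusted p = 0.0381). Its 72 h signal is low, so the size of that difference is uncertain, and with an offset of 32 it was -0.64 and not called. Dnaja3, the matrix partner of Hspa9, had 129 in 72 h IL-21 cells, against 213 and 169 in 48 h IL-21 cells and 232 and 249 in 48 h cells without it. Its 72 h value was below all 4 others without passing (-0.55, adjusted p = 0.172 in limma). Dnajc15, an inner-membrane J-domain protein, was above all 4 arrays at 72 h with 375, against 277 at 48 h with IL-21, and did not pass either (0.44, interval 0.002 to 0.87).

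The Hsp110 family, nucleotide exchange factors of Hsp70, split between its members. Hsph1, the stress-inducible Hsp110, had 89.3 in 72 h IL-21 cells, against 373 and 359.5 in 48 h IL-21 cells and 389 and 342 in 48 h cells without it. Hspa4, the constitutive Apg-2, had 161 in 72 h IL-21 cells, against 390.4 and 443 in 48 h IL-21 cells and 398 and 337 in 48 h cells without it. The log2 differences at 72 h were -2.04 for Hsph1 (SE 0.18, limma adjusted p = 0.00928), the largest of the 49 genes, and -1.37 for Hspa4 (SE 0.19, limma adjusted p = 0.0157). With the mean over its probe sets, Hspa4 had -0.66 and was not called (limma adjusted p = 0.132), and its other 4 probe sets gave -0.98, -0.43, -0.74 and 0.22. On the probe sets used, both genes were far outside the spread of the 48 h arrays, which for Hsph1 ran only from 342 to 389. Hspa4l, the third member, had a difference of the opposite sign: its 72 h signal of 157 lay above all 4 arrays, which read 106 and 83.0 with IL-21 and 93.9 and 90.9 without it at 48 h (0.74, SE 0.24, limma adjusted p = 0.11, not called). The intervals of Hspa4 (-1.84 to -0.89) and Hspa4l (0.15 to 1.34) did not overlap, though the difference between the 2 genes was not itself tested.

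**Figure D2:**
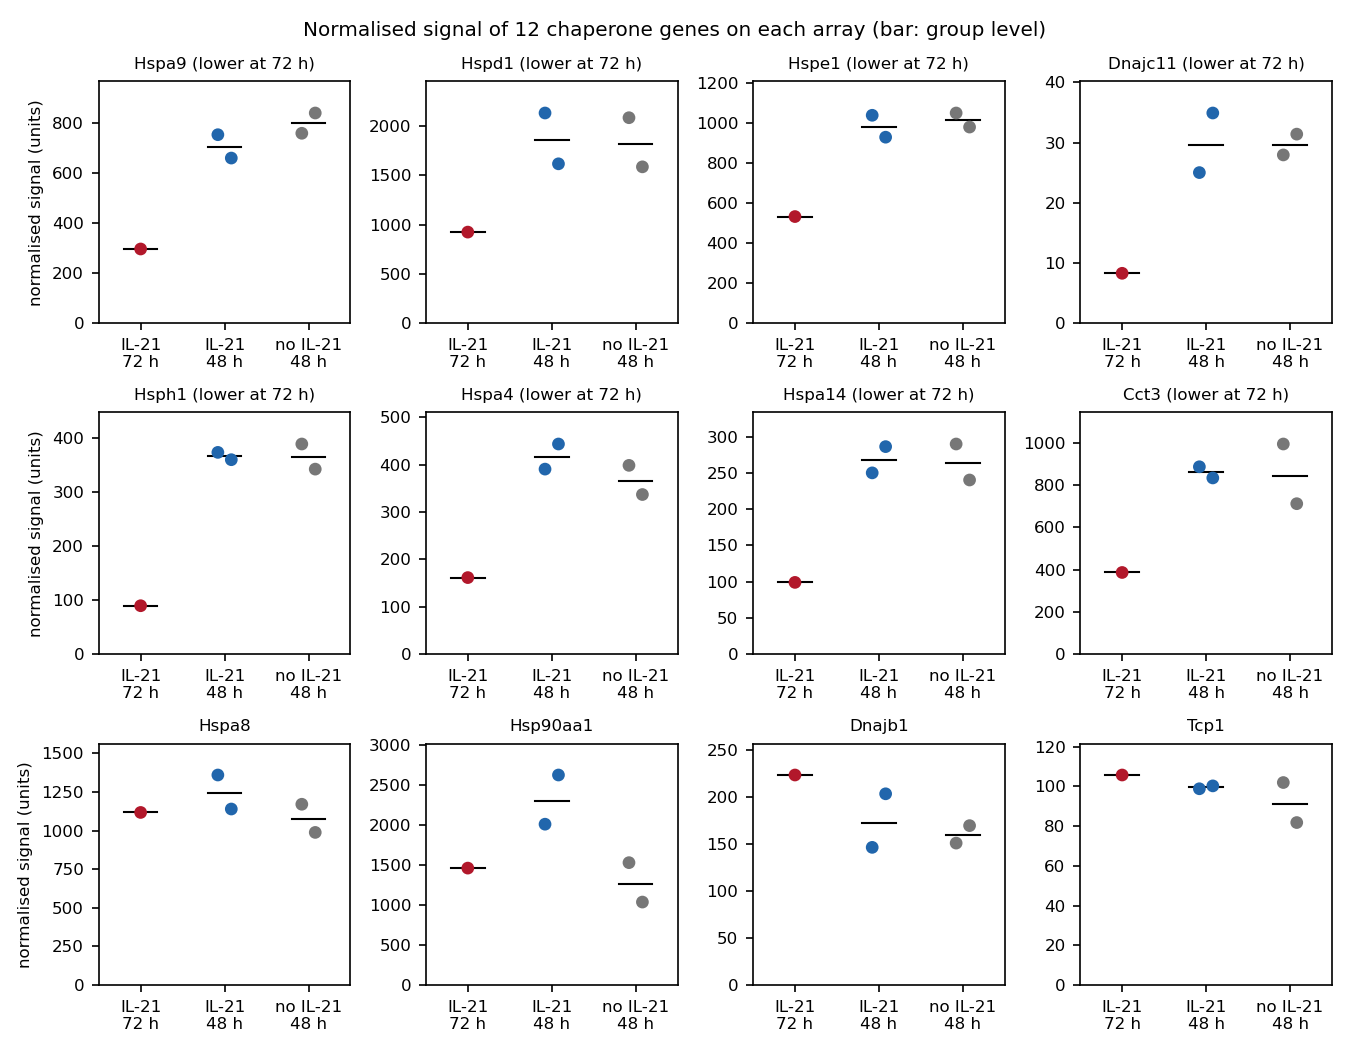
Normalised signal (units, axis from 0) of 12 chaperone genes on each array, by group, with a bar at the group level. The 8 genes in the upper 2 rows have their 72 h point below every 48 h point, while those of Hspa8, Hsp90aa1, Dnajb1 and Tcp1 do not.

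Among cytosolic Hsp70 genes Hspa14 alone was called. Hspa8, the constitutive Hsc70 that carries most housekeeping folding, had 1117 in 72 h IL-21 cells, against 1359.8 and 1139.5 in 48 h IL-21 cells and 1170.4 and 988 in 48 h cells without it. Its 72 h array lay within the range of the 48 h arrays (-0.16, interval -0.58 to 0.27). Hspa14, an atypical Hsp70 that binds the ribosome together with Dnajc2, had 99.0 in 72 h IL-21 cells, against 250.3 and 287 in 48 h IL-21 cells and 290.2 and 240.4 in 48 h cells without it, a fall of 2.71-fold (-1.44, SE 0.21, limma adjusted p = 0.0166). Its partner Dnajc2, the mammalian zuotin that receives nascent chains, had 287 in 72 h IL-21 cells, against 479 and 436 in 48 h IL-21 cells and 531 and 477 in 48 h cells without it. Dnajc2 was below all 4 arrays at 72 h and just missed the threshold (-0.67, limma adjusted p = 0.0566), and its other probe set gave -0.37. The stress-inducible pair Hspa1a and Hspa1b, near-identical copies whose probe sets may cross-hybridise, read between 11.1 and 22.1 on all arrays, with log2 differences of 0.23 for Hspa1a (SE 0.50) and -0.56 for Hspa1b (SE 0.43), neither called.

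Hsp90aa1, Stip1 and Hspbp1 had negative differences at 72 h, 0 of them called. Hsp90aa1, the inducible cytosolic Hsp90, had 1461 in 72 h IL-21 cells, against 2009.5 and 2624 in 48 h IL-21 cells and 1529 and 1037 in 48 h cells without it. The 72 h value lay below both IL-21 arrays at 48 h and between the IL-21-free ones (-0.65, interval -1.30 to -0.01, adjusted p = 0.18 in limma). Stip1 had 186 in 72 h IL-21 cells, against 233 and 244 in 48 h IL-21 cells and 313 and 326 in 48 h cells without it (-0.35 at 72 h, limma adjusted p = 0.253). Hspbp1, a nucleotide exchange factor that restrains Hsp70, had 109 in 72 h IL-21 cells, against 144 and 191 in 48 h IL-21 cells and 160.5 and 182 in 48 h cells without it (-0.61, limma adjusted p = 0.18). Both co-chaperones were below all 4 other arrays, as were 33.8% of all probe sets. Hsp90ab1 and Ahsa1 were not among the singly named probe sets and have no value here.

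The other J-domain proteins, apart from Dnajc2, were spread on either side of 0 at 72 h. Of all 23 J-domain genes tested 12 were negative and 11 positive, with a median of -0.01, and Dnajc11 alone passed. In class A, the co-chaperones of Hsc70 built like bacterial DnaJ, Dnaja1 had 183 in 72 h IL-21 cells, against 229 and 223 in 48 h IL-21 cells and 245 and 263 in 48 h cells without it (-0.30, limma adjusted p = 0.343). Dnaja2 had 22.1 in 72 h IL-21 cells, against 41.1 and 48.1 in 48 h IL-21 cells and 40.7 and 40.9 in 48 h cells without it (-1.01, limma adjusted p = 0.0812). All 3 class A genes were below every 48 h array at 72 h, as were 33.8% of all probe sets. In class B, Dnajb1, the stress-inducible Hsp40, had 223 in 72 h IL-21 cells, against 146 and 203 in 48 h IL-21 cells and 151 and 169 in 48 h cells without it (0.37, interval -0.25 to 1.00), and Dnajb6, which holds back aggregation, had 607 in 72 h IL-21 cells, against 454 and 501 in 48 h IL-21 cells and 415 and 466 in 48 h cells without it (0.35, interval -0.06 to 0.76). These 2 genes were above all 4 arrays at 72 h, as were 30.4% of all probe sets, and neither of them was called. In class C the ribosome biogenesis factor Dnajc21 was below all 4 arrays and did not pass (-0.76, limma adjusted p = 0.0961). The spliceosome-associated Dnajc8 (-0.01), the Hsp90 and Hsp70 adaptor Dnajc7 (0.04), the vesicle protein Dnajc5 (-0.02) and the endosomal Dnajc13 (0.07) all lay near 0, and the histone chaperone Dnajc9 differed by -0.23. Dnajc4 (0.49), Dnajc17 (-0.26), Dnajb2 (0.05), Dnajb3 (-0.44) and Dnajb13 (0.13) had signals under 67 on every array and wide intervals.

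The symbol rule also took in 5 J-domain proteins that reside in the endoplasmic reticulum, and so are neither cytosolic nor mitochondrial. Dnajb11, a co-chaperone of BiP, had 66.3 in 72 h IL-21 cells, against 113 and 121 in 48 h IL-21 cells and 113 and 138 in 48 h cells without it (-0.82, limma adjusted p = 0.0778) and was below all 4 arrays at 72 h. Dnajc1 (0.19), Dnajc3 (0.04) and the reductase Dnajc10 (0.14) were not lower, and Dnajb9 fell below the filter. The endoplasmic reticulum Hsp70 and Hsp90 that the rule leaves out were both called lower, Hspa5 by 1.24 and Hsp90b1 by 0.77 on the log2 scale. Without the 4 tested endoplasmic reticulum members the median over the other 45 genes was -0.35, with the same 8 calls.

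Most TRiC subunits had negative differences, of which 1 passed. Of 9 genes measured 7 were negative at 72 h (median -0.50), 6 were below all 4 arrays at 48 h and 1, Cct3, was called. Over all probe sets 33.8% were below all 4 arrays and 7.12% were called lower, so 1 call among 9 genes is near the background. Cct3 had 387 in 72 h IL-21 cells, against 888 and 835 in 48 h IL-21 cells and 996 and 713 in 48 h cells without it (-1.16, SE 0.22, limma adjusted p = 0.0286). Cct5 had 1048 in 72 h IL-21 cells, against 1449.7 and 1508 in 48 h IL-21 cells and 1644 and 1573 in 48 h cells without it and just missed the threshold (-0.50, SE 0.12, limma adjusted p = 0.0503). Cct8 (-0.76), Cct6a (-0.63) and Cct7 (-0.59) had differences of like size, with adjusted p of 0.0798, 0.105 and 0.0621 in limma. For all 5 of these subunits the 72 h array was the lowest. Cct4 had 1002 in 72 h IL-21 cells, against 1223 and 1072 in 48 h IL-21 cells and 1382 and 1449.7 in 48 h cells without it, a smaller difference (-0.19, interval -0.53 to 0.15). Tcp1, the alpha subunit, had 106 in 72 h IL-21 cells, against 98.8 and 100.3 in 48 h IL-21 cells and 102 and 81.8 in 48 h cells without it (0.09, interval -0.49 to 0.67), so its 72 h array was the highest of all. Cct2, the beta subunit, is described with IL-21 below, and Cct6b, a form of the zeta subunit known from testis, stayed between 15.4 and 21.9 on all arrays.

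**Figure D3:**
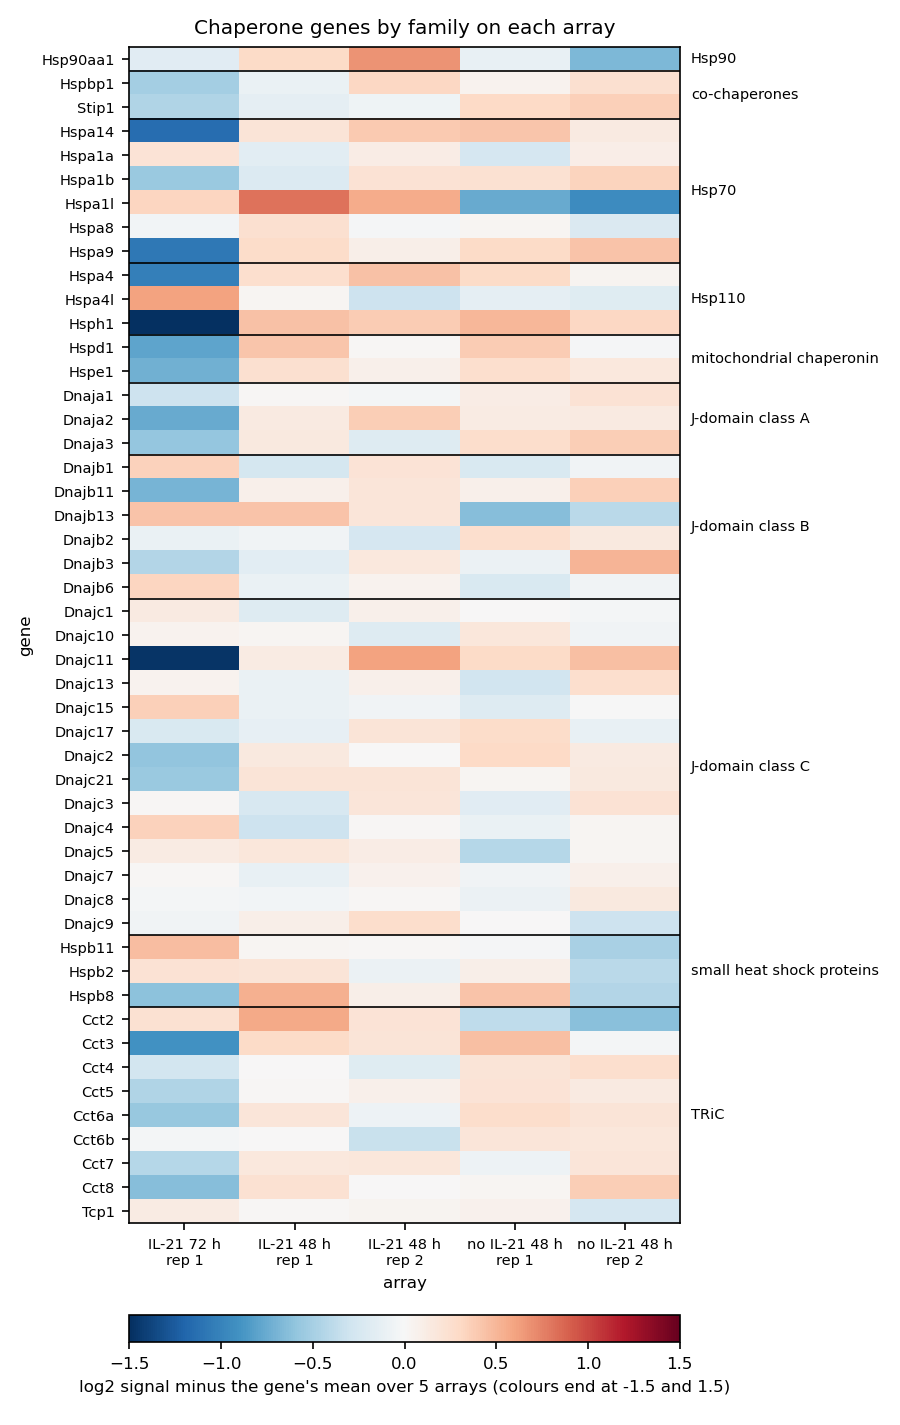
Log2 signal of the 49 tested genes on each array minus the gene's mean over the 5 arrays (blue lower, red higher, colours ending at -1.5 and 1.5), with lines between families. The 72 h column is the bluest for Hsph1, Dnajc11, Hspa14, Hspa9 and Hspa4, and red for Hspa4l.

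No small heat shock protein was called. Hspb8, which acts with Bag3 in selective autophagy, had 14.6 in 72 h IL-21 cells, against 32.5 and 23.9 in 48 h IL-21 cells and 30.3 and 16.6 in 48 h cells without it, so its arrays overlapped widely at 48 h (-0.93 at 72 h, interval -2.14 to 0.28). Hspb2 had 50.0 in 72 h IL-21 cells, against 49.0 and 40.2 in 48 h IL-21 cells and 45.5 and 32.6 in 48 h cells without it (0.17), and Hspb11, an intraflagellar transport protein in spite of its symbol, differed by 0.44 (interval -0.33 to 1.21). The 6 genes below the filter were Hspb1, Hspa2, Dnajb4, Dnajb5, Dnajb8 and Dnajb9. Their normalised signals lay between 2.25 and 28.2, and they were not tested.

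By position alone, 25 of the 49 genes (51.0%) had a 72 h signal below all 4 arrays at 48 h and 10 (20.4%) a signal above all 4. Over all probe sets these shares were 33.8% and 30.4%. The threshold runs through the members without a gap: Hspd1 was the last gene called (adjusted p = 0.0437) and Cct5 and Dnajc2 the first not called (adjusted p = 0.0503 and 0.0566 in limma).

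**Figure D4:**
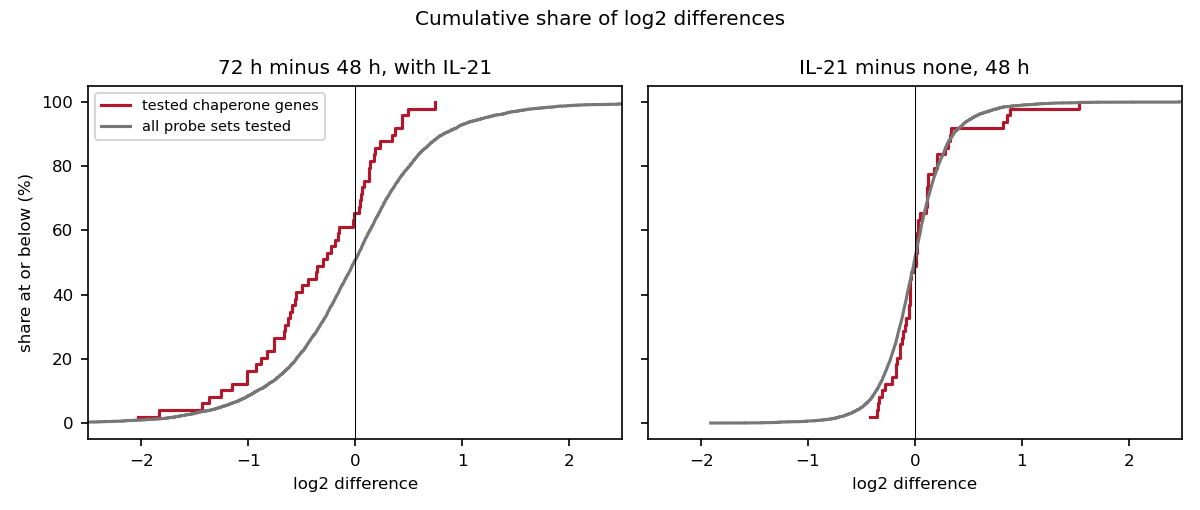
Cumulative share (%) of log2 differences for the 49 tested chaperone genes (red) and all 7453 probe sets tested (grey), for 72 h minus 48 h with IL-21 (left) and IL-21 minus none at 48 h (right), shown from -2.5 to 2.5. The red line lies above the grey one over most of the range left of 0 in the left panel, with medians of -0.30 and -0.01, and close to it in the right panel.

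Probe sets of the same gene differed in size. Of the 5 tested probe sets of Hspa4, 2 were called lower (-1.37 and -0.98), 2 were lower without passing (-0.43 and -0.74) and the fifth differed by 0.22. All 3 probe sets of Cct3 were lower at 72 h (-1.16, -1.31 and -0.72), the first 2 of them called. Both of Hspd1 were lower (-1.01 and -0.66), only the first of them called. Both of Dnajb6 were higher (0.35 and 0.59), neither called. In each pair 1 is the value given above. The probe sets of Dnajb13 and Dnajc3 disagreed in sign at 72 h. For IL-21 against none at 48 h, those of Cct3 ran from -0.0001 to 0.45 and those of Dnajc8 from -0.04 to 0.48, without a call.

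**Figure D5:**
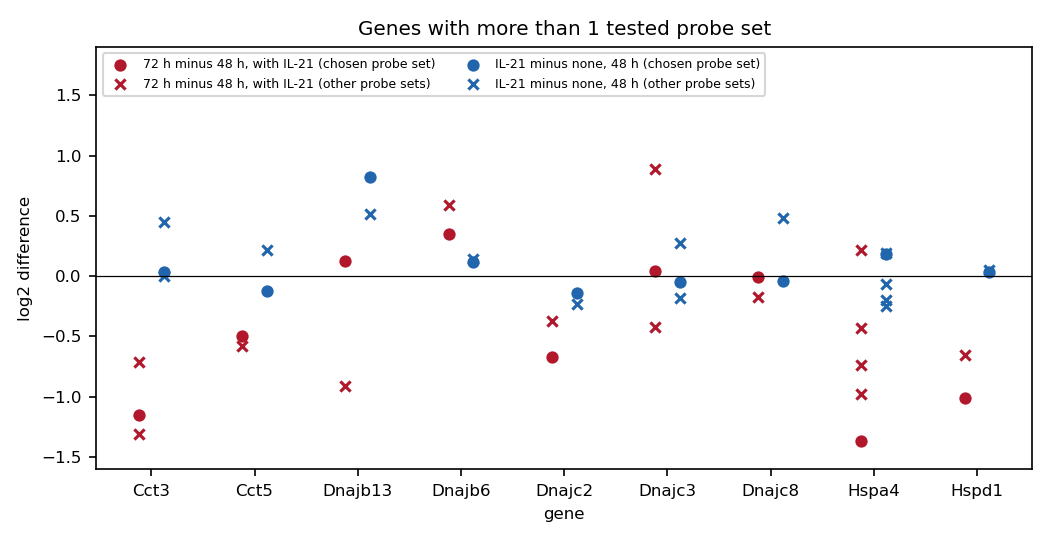
Log2 difference of every tested probe set of the 9 genes with more than 1, for 72 h minus 48 h with IL-21 (red) and IL-21 minus none at 48 h (blue). Dots are the probe sets used in the text and crosses the others, and the red symbols of Hspa4 spread from -1.37 to 0.22.

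Genes that work with these chaperones were taken from 4 lists. Their counts are to be read against 7.12% of all probe sets called lower and 4.04% called higher. Of 10 Hsp90 co-chaperones and immunophilins 3 were called lower and 0 higher at 72 h: Ppid, the cyclophilin 40 of Hsp90 complexes (-1.77, limma adjusted p = 0.0163), the phosphatase Ppp5c (-1.69, limma adjusted p = 0.0121) and the immunophilin Fkbp4 (-1.27, limma adjusted p = 0.0135). Fkbp4 had 252 in 72 h IL-21 cells, against 649 and 568 in 48 h IL-21 cells and 517 and 493 in 48 h cells without it. Fkbp5, its paralogue, had 784 in 72 h IL-21 cells, against 224 and 371 in 48 h IL-21 cells and 152 and 240.2 in 48 h cells without it, and was above all 4 arrays without passing (1.44, limma adjusted p = 0.0665). Of 9 mitochondrial partners 3 were called lower and 0 higher, the protease subunit Clpp (-1.79), Grpel2, a nucleotide exchange factor of Hspa9 (-1.66), and the import receptor Tomm70a (-0.99), with adjusted p of 0.00928, 0.0234 and 0.0437 in limma. Clpp had 83.9 in 72 h IL-21 cells, against 301 and 280.0 in 48 h IL-21 cells and 296 and 333 in 48 h cells without it. Its 72 h array, like that of Fkbp4, lay below all 4 others. Grpel1, the other exchange factor of Hspa9, differed by -0.67 and Pmpcb, a subunit of the peptidase that trims imported proteins, by -0.93, neither called. Of 9 prefoldin and TRiC partners the prefoldin subunit Pfdn2 was called lower (-1.48, limma adjusted p = 0.0117) and 0 higher, while the tubulin cofactor Tbca differed by 0.58 and did not pass. Of 8 heat shock factor and Hsp70 partners 0 were called by limma. The ubiquitin ligase Stub1 alone had an unadjusted limma p under 0.05 (-0.82). Of all 7453 probe sets, 1166 were lower at that p and 866 higher. List medians were -0.26, -0.67, -0.004 and -0.20 in this order.

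At 48 h, with the comparison of IL-21 against none, chaperone genes were balanced around 0. Of 49 genes 25 were positive and 24 negative, with a median log2 difference of 0.01, against -0.01 over all probe sets, and 0 passed in limma, where 0% of all probe sets did. An unadjusted p under 0.05 was reached by 6 of the 49 (12.2%), 4 higher and 2 lower, against 4.39% of all probe sets (2.55% higher and 1.84% lower), and the adjusted p of each was 0.967. The 4 higher include Hspa1l, whose probe set passed the filter on low signal only through the arrays with IL-21. Hspa1l had a value in only 2 of the 4 fits that left out a 48 h array, and it is also counted next. The arrays of the 2 groups did not overlap for 19 genes (38.8%), 9 higher and 10 lower with IL-21, against 33.8% of all probe sets (15.9% higher and 17.9% lower). The values that follow therefore describe 2 arrays against 2. This comparison and the one over time share the 48 h arrays with IL-21, so a gene high on those arrays moves up in one and down in the other.

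Hsp90aa1 had 2009.5 and 2624 with IL-21, against 1529 and 1037 without it, 1.82-fold higher by group level (0.87, SE 0.22, interval 0.34 to 1.39, not called). Each IL-21 array was above each array without it, and the 2 arrays of either group differed from each other as well, so that leaving out single arrays gave 0.60 to 1.17. Cct2 had 94.4 and 73.0 with IL-21, against 48.7 and 41.1 without it (0.89, SE 0.23, not called), and its 72 h signal of 74.3 lay between the 2 IL-21 arrays at 48 h. No other TRiC subunit was as far apart: Cct4 had 1223 and 1072 with IL-21, against 1382 and 1449.7 without it (-0.31, SE 0.11), lower with IL-21 without overlap, Cct6b differed by -0.33, and Cct3, Cct5, Cct6a, Cct7, Cct8 and Tcp1 lay between -0.18 and 0.12. Stip1 had 233 and 244 with IL-21, against 313 and 326 without it (-0.42, SE 0.14), lower with IL-21 without overlap and not called. The probe set of Hspa1l, a testis-enriched Hsp70, had 23.3 and 19.5 with IL-21, against 7.85 and 6.90 without it (1.54), and that of Dnajb13, a sperm flagellum protein, 66.8 and 56.0 with IL-21, against 31.8 and 37.5 without it (0.82). The signals of these last 2 probe sets are low and detection was not tested.

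The genes that were lower at 72 h showed little difference with IL-21 at 48 h. Among the 8, the log2 differences of IL-21 against none lay between -0.18 for Hspa9 and 0.18 for Hspa4, and the groups overlapped for each of them but Hspa9, which was lower on both IL-21 arrays. For Hsph1 the difference was 0.01 (interval -0.35 to 0.37), for Hspd1 0.03 (-0.42 to 0.48) and for Hspe1 -0.05 (-0.34 to 0.24), so differences of this size could not be told from 0 with 4 arrays. Hspa8 differed by 0.21 (SE 0.14), and the class A genes Dnaja1 and Dnaja3 by -0.17 and -0.34, both lower with IL-21 without overlap and not called. Medians by family at 48 h were 0.04 for 6 Hsp70 genes, 0.02 for 3 Hsp110 genes, -0.08 for 9 TRiC genes and -0.04 for 23 J-domain genes. Among the partners 0 were called at 48 h by limma, and 1 had an unadjusted p under 0.05, the tubulin cofactor Tbce (-0.78). That p was reached by 4.39% of all probe sets.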

How the data were processed

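RNA of 5 samples was hybridised to Affymetrix mouse arrays with 12488 probe sets, 1 array per sample. The authors deposited 1 linear intensity per probe set and array, computed by MAS5 according to the submitters' processing notes. Its version, scaling target and detection calls were not used here. Samples were grouped by their titles. Symbols from the platform annotation were updated through Entrez identifiers to the GRCm38.p6 RefSeq table (10817 of 10833 singly named probe sets matched), and 396 probe sets with several names were not used for genes, 2 of them naming Dnajc19.

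An offset of 1.53 (the 10th percentile) was added, log2 values of the deposited intensities were quantile-normalised over the 12422 probe sets that were not controls, and those with a mean log2 value above the 40th percentile were tested (7453). Group levels are 2 raised to the mean log2 value. limma 3.58.1 in R 4.3.3 fitted 3 group means to all 5 arrays, with empirical Bayes variances trended on signal, a two-sided test and Benjamini-Hochberg adjusted p over the 7453 at 0.05. Intervals are 95%. The fit was tested on simulated data. Alternatives were the offset, 3 other scalings (on hybridisation controls by the mean log2 value of 9 probe sets), the filter, the trend, gene means, a replicate block and leaving out each 48 h array. Protein motifs named in the design were not searched, since no protein sequences were used here. The members and lists were chosen with earlier results of these data known. Named genes were those called, those with an unadjusted p under 0.05 at 48 h, the brightest and most changed of each family, and 14 fixed genes. The partner genes named are those called and up to 4 others of a list. Each family was read from its symbols, with Hspa4 and Hspa4l placed in Hsp110 by sequence.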

Additional observations from a re-analysis of the deposited data

How the results depend on the processing

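The 8 genes called at 72 h kept a negative difference under each alternative that gave them a value, and the filter at the 60th percentile left Dnajc11 without one. Of these 8, 7 stayed called with an offset of 32, 6 with gene means over probe sets and 6 without the filter. All 8 did with arrays centred on their medians. The count of chaperone genes called was 8 and became 0 without the variance trend, 5 with arrays centred on the hybridisation controls, 25 in the unscaled values and 14 with the replicate number as a block, and lay between 0 and 7 when each 48 h array was left out. It was 0 without the first or the second 48 h array with IL-21, where 1 array stands against 1 and is assumed to vary like the other groups. In these 2 fits, as without the trend, 0 of all probe sets passed in limma. The median at 72 h was -0.30, and -0.19 with an offset of 32, -0.87 unscaled, -0.46 with arrays centred on their medians, -0.17 on the hybridisation controls and -0.23 without the filter, and -0.35 to -0.30 with single arrays left out. The 3 other scalings moved the median of all probe sets at 72 h to -0.58, -0.17 and 0.12 in the same order. In the unscaled values 2027 of all 7453 probe sets were called lower at 72 h and far fewer higher. On the controls 326 were called lower and 320 higher, against 531 and 301 with quantile normalisation. At 48 h the count of 0 became 9, all higher, in the unscaled values, where 696 of all 7453 probe sets were called higher and 0 lower. The median was 0.57 unscaled and -0.19 on the controls, where all probe sets had 0.57 and -0.19, and -0.038 to 0.059 with single arrays left out.

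The replicate numbers are shared by the 48 h groups, and no label ties them to a day or mouse. Deviations of same-numbered arrays correlated at 0.36 over probe sets, with only 2 pairs. With this block 0 chaperone genes were called at 48 h, where 0.148% of all probe sets passed. At 72 h 14 were called, 8 of them the genes called without it, where 25.0% of all probe sets passed. The block left 1 residual degree of freedom.

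Differences that had not passed changed sign in some settings. At 48 h these log2 differences were, unscaled, Cct4 0.32, Cct5 0.47, Dnaja1 0.40, Dnaja3 0.22, Dnajb11 0.49, Dnajc11 0.57, Dnajc8 0.57, Hspa9 0.44, Hspbp1 0.53, Hspe1 0.55 and Stip1 0.15. With arrays centred on medians they were Dnajc11 0.036, Dnajc8 0.036 and Hspe1 0.019. On the controls they were Cct3 -0.13, Dnaja2 -0.053, Dnajb1 -0.076, Dnajb6 -0.033, Hspa14 -0.17, Hspd1 -0.11, Hsph1 -0.16 and Tcp1 -0.060. With gene means they were Cct5 0.047, Dnajc8 0.22, Hspa4 -0.027 and Tcp1 -0.33, and with an offset of 32 Dnajc11 0.0024. At 72 h they were, unscaled, Dnajb1 -0.37, Dnajb13 -0.44, Dnajb6 -0.34, Hspb2 -0.35 and Tcp1 -0.57. With arrays centred on medians they were Dnajb13 -0.031 and Tcp1 -0.16, with gene means Dnajb13 -0.39 and Tcp1 -0.14, and with the replicate block Dnajc5 0.078, Dnajc8 0.065 and Hspb2 -0.019. Leaving out single arrays at 48 h gave Hspe1 -0.12 to 0.034, Cct3 -0.21 to 0.26, Dnajb11 -0.23 to 0.055, Dnajc11 -0.24 to 0.24, Dnajc8 -0.15 to 0.078, Hspa14 -0.11 to 0.16, Hspb2 -0.037 to 0.45, Hspb8 -0.12 to 0.75, Hspbp1 -0.24 to 0.16, Hspd1 -0.18 to 0.23, Hsph1 -0.081 to 0.099, Tcp1 -0.035 to 0.28, Dnajb1 -0.12 to 0.34. At 72 h it gave Cct2 -0.34 to 0.026, Dnajc5 -0.054 to 0.0098, Dnajb13 -0.0012 to 0.26, Dnajc8 -0.040 to 0.021. The number of arrays, and signal near background for dim probe sets, limited the precision.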
